A study of Mus musculus with 18 samples.

Results

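The genes described here are 28 genes of cholesterol synthesis and of the SREBP2 pathway that controls it, measured in the small intestine and the liver of young mice colonised with gut microbiota from old or young donors. They were chosen by name, with earlier results of these data known. Each was read from the probe set that the platform annotation gives to that gene alone. Where there were 2, the probe set of highest mean was taken. By this rule 26 of the 28 genes had values, out of 22180 genes on the array with a probe set of their own. The probe set of Idi1 carries a second gene symbol and was not used, and Acat2 matched no probe set of the annotation. All 26 passed the filter on low values in both tissues, which left 13238 genes tested in intestine and 13380 in liver.

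Cells make cholesterol from acetyl-CoA by way of mevalonate, farnesyl diphosphate and squalene, and a series of oxidations and reductions then turns lanosterol into cholesterol. SREBP2, the product of Srebf2, is a membrane-bound transcription factor of the endoplasmic reticulum. When sterols are scarce, the escort protein SCAP carries it to the Golgi, where the proteases encoded by Mbtps1 and Mbtps2 release its active part, and when sterols are plentiful the INSIG proteins hold SCAP back. The liver is the main organ of lipoprotein and bile acid production, and the small intestine both absorbs sterols and makes them.

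The recipients were germ-free C57BL\6 mice, 5 to 6 weeks old at transfer, and their tissues were taken 8 weeks later. Both groups therefore share the germ-free start, the age and the transfer itself, and differ in the donor. The microbiota of OMT mice came from old donors of about 24 months. That of YMT mice came from young ones, whose age is 4 weeks by the protocol but 5 to 6 weeks by the series' design text. The recipients' age at sampling is given as 12 or as 13 weeks. Each tissue contributed 5 OMT and 4 YMT arrays, 1 array per biological replicate, and whether several recipients shared a donor or a cage is not stated in the labels used here.

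Levels are on the log2 scale of the arrays, and a difference is the OMT mean less the YMT mean, followed by its standard error (SE). The adjusted p-values come from limma's two-sided test with Benjamini-Hochberg adjustment over all genes tested in the tissue, and a gene was called at an adjusted p under 0.05. A level depends on the probes of its gene, so levels are compared only within a gene. The number of arrays limits the precision. In whole tissue, fewer cells of a type and less RNA per cell cannot be told apart. The mean of the hepatocyte markers lay between 12.49 and 12.61 on liver arrays and between 5.50 and 5.87 on intestine arrays, and that of the enterocyte markers between 5.34 and 6.00 and between 11.75 and 12.44, as the tissue labels say.

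Promoters are shown for 5 members around which the comparisons turn: Hmgcs1 for the entry into the pathway, Nsdhl and Tm7sf2 because they fell in both tissues, and Sc5d and Srebf2 because they differed between the tissues. Each stretch is the 150 bases before the annotated start of the gene, 5′ to 3′ on the strand of the gene, from RefSeq with build GRCm38.p6. The Hmgcs1 stretch is chr13:119690201-119690350 (plus strand), that of Nsdhl chrX:72918371-72918520 (plus), of Tm7sf2 chr19:6067851-6068000 (minus), of Sc5d chr9:42264301-42264450 (minus) and of Srebf2 chr15:82147119-82147268 (plus). Capitals mark matches on either strand to 3 motifs: TCACNCCAC, a form of the sterol regulatory element that SREBPs bind, the E-box CACGTG, and the CCAAT box that NF-Y, a known partner of SREBPs, binds.
Hmgcs1: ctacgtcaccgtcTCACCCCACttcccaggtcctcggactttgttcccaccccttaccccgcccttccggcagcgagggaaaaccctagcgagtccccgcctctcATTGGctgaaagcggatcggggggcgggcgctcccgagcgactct
Nsdhl: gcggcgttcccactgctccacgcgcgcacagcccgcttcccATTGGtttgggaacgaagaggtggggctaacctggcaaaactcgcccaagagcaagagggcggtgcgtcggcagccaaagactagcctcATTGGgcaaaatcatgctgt
Tm7sf2: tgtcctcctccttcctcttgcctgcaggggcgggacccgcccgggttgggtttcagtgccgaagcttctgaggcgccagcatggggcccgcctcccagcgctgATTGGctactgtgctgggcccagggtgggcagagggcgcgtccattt
Sc5d: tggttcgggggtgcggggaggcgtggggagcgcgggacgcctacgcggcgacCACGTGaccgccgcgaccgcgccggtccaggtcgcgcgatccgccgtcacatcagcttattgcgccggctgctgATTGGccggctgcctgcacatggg
Srebf2: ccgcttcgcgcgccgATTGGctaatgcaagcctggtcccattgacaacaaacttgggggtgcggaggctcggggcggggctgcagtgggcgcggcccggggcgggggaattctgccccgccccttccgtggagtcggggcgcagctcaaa

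Of the 28 listed genes, 23 have a promoter in the RefSeq table. A CCAAT box was present in 19 of these 23, for which the table holds a window from 250 bases before to 50 after the start, or 82.6%. It was present for 41.1% of all 27025 genes in the table and for 41.7% of the 9407 that were also tested in both tissues. The E-box was found in 5 of the 23, or 21.7%, namely Hsd17b7, Sc5d, Dhcr7, Scap and Insig1, against 8.09% of all genes and 11.7% of those tested. The sterol regulatory element in the spelled form was found in 1 member, Hmgcs1, where it lies 129 to 137 bases before the start, against 1.44% of all genes. A gene with several annotated starts was counted once, and no match of one motif overlapped a match of another in the listed genes. A match is a description of the letters in this window, not evidence that a factor binds there.

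In the small intestine, most genes of the pathway had lower estimates with old-donor microbiota, and most of the called falls were enzymes that take squalene on to cholesterol. Of the 26 members 6 fell, or 23.1%, against 3.1% of all genes tested (4.14% in either direction). They were Fdps, Sqle, Cyp51, Tm7sf2, Nsdhl and Ebp, and all but Fdps act between squalene and cholesterol. None rose by limma, against 1.04% of all genes, 1 being higher and 18 lower at an unadjusted p under 0.05. The median difference of the members was -0.56, against -0.02 over all genes tested, and 23 of the 26 estimates were below 0, against 54.8% of all genes. On 6 members every OMT array lay below every YMT array, which held for 6.84% of all genes, and on none did all lie above, which held for 2.8%.

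The first enzymes of the pathway lead to farnesyl diphosphate. Hmgcs1, which makes HMG-CoA, was at 8.94, 9.42, 9.81, 9.67 and 10.49 on OMT replicates 1 to 5 and at 11.1, 10.74, 10.56 and 10.49 on YMT replicates 1 to 4. The highest OMT array equalled the lowest YMT array, and the difference of -1.06 ± 0.26 did not pass (adjusted p = 0.0533). Fdps, the farnesyl diphosphate synthase at the branch point to sterols and prenyl groups, was at 7.32, 7.14, 7.62, 7.84 and 8.24 in OMT and at 8.97, 8.58, 8.31 and 8.46 in YMT. It fell 1.93-fold (-0.95 ± 0.22, adjusted p = 0.0394), with no overlap of the groups. The mevalonate kinase Mvk (-0.56 ± 0.16), the phosphomevalonate kinase Pmvk (-0.46 ± 0.12) and the decarboxylase Mvd (-0.59 ± 0.19) did not pass, at adjusted p-values of 0.0775, 0.0611 and 0.101. Ggps1, which leads off to geranylgeranyl groups instead of sterols, was at 6.66 ± 0.03 in OMT and 6.73 ± 0.05 in YMT (SD, n = 5 and 4), a difference of -0.07 ± 0.06 (adjusted p = 0.529).

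Sterol synthesis proper begins with squalene. Sqle, the squalene epoxidase that brings in oxygen, was at 7.31, 7.89, 8.3, 8.2 and 9.14 in OMT and at 9.68, 9.41, 9.24 and 9.36 in YMT. It fell 2.39-fold (-1.25 ± 0.29, adjusted p = 0.0423), with OMT replicate 5 just below the lowest YMT array. Cyp51, the lanosterol demethylase, was at 7.0, 7.24, 7.49, 7.58 and 8.21 in OMT and at 9.2, 8.65, 8.61 and 8.6 in YMT, a fall of 2.4-fold (-1.26 ± 0.22, adjusted p = 0.0165). Its groups did not overlap.

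Tm7sf2, a sterol reductase of the next step, was at 6.61, 6.38, 6.3, 6.3 and 6.66 in OMT and at 7.87, 7.46, 7.21 and 7.25 in YMT. The OMT arrays were tightly grouped and all below the YMT arrays (-0.998 ± 0.14, adjusted p = 0.00655). Nsdhl, the dehydrogenase that helps remove methyl groups from the sterol ring, was at 7.13, 7.32, 7.68, 8.03 and 8.11 in OMT and at 9.43, 9.03, 9.06 and 8.95 in YMT. Its fall of 2.76-fold was the largest point estimate among the members (-1.46 ± 0.20, adjusted p = 0.00605). Ebp, the sterol isomerase, was at 7.8, 7.59, 7.83, 8.13 and 7.89 in OMT and at 8.5, 8.52, 8.31 and 8.48 in YMT, a smaller fall of 1.52-fold with no overlap (-0.60 ± 0.10, adjusted p = 0.0143).

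The remaining enzymes from squalene on had estimates below 0 and did not pass. Those of Fdft1, the squalene synthase (-1.14 ± 0.31, adjusted p = 0.068), Lss, the lanosterol synthase (-0.92 ± 0.24, adjusted p = 0.0623), and the monooxygenase Msmo1 (-0.67 ± 0.18, adjusted p = 0.0636) lay nearest to the threshold. The reductase Hsd17b7 was at -0.40 ± 0.19 and Dhcr7, the reductase of the closing step, at -0.38 ± 0.15. Sc5d, the desaturase just before it, was at 9.19, 9.52, 9.83, 9.54 and 9.52 in OMT and at 9.77, 9.89, 9.95 and 9.66 in YMT, so the groups overlapped (-0.30 ± 0.12, adjusted p = 0.173).

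Srebf2 and the genes that control SREBP2 had a median difference of -0.35 in intestine. None was called by limma, 3 of these 6 (Srebf2, Insig1 and Mbtps2) being lower at an unadjusted p under 0.05. Srebf2 itself was at 8.19, 8.43, 8.58, 8.72 and 9.05 in OMT and at 9.46, 9.13, 8.96 and 9.03 in YMT (-0.55 ± 0.17, adjusted p = 0.0868). The overlap came from OMT replicate 5, which lay above 2 of the YMT arrays. Insig1, itself induced by SREBP2, was at 7.51, 8.52, 8.42, 8.34 and 9.28 in OMT and at 9.65, 9.18, 9.12 and 8.63 in YMT (-0.73 ± 0.31, adjusted p = 0.194). Its relative Insig2 was at 7.18, 7.57, 7.84, 7.96 and 8.07 and at 7.6, 7.9, 7.94 and 7.78, with the YMT arrays inside the OMT range (-0.08 ± 0.17, adjusted p = 0.803). Scap was at 6.85, 7.06, 7.25, 7.41 and 7.63 in OMT and at 7.86, 7.49, 7.27 and 7.63 in YMT (-0.32 ± 0.16, adjusted p = 0.272). The estimates of the proteases Mbtps1 (0.17 ± 0.10) and Mbtps2 (-0.38 ± 0.14) had opposite signs.

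The only members with intestinal estimates above 0 were Mylip, Npc1 and Mbtps1. Mylip, a ubiquitin ligase that sends lipoprotein receptors to degradation and is a target of the oxysterol receptor LXR rather than of SREBP2, was at 6.98, 7.5, 7.66, 7.27 and 7.32 in OMT and at 6.9, 7.07, 6.76 and 6.9 in YMT. All but OMT replicate 1 lay above the YMT arrays, and the difference did not pass (0.44 ± 0.13, adjusted p = 0.0819). With quantile normalization within the tissue it passed, at 0.50 (adjusted p = 0.0477), and without OMT replicate 1 at 0.53 (adjusted p = 0.0339). Npc1, which exports cholesterol from lysosomes, was at 7.43, 8.55, 8.82, 8.78 and 8.47 in OMT and at 7.64, 8.46, 8.41 and 8.09 in YMT (0.26 ± 0.28, adjusted p = 0.613). Replicate 1 was the lowest array in each group. The sterol carrier Stard4 was at 8.81, 8.73, 8.63, 8.54 and 8.8 and 9.18, 8.91, 8.91 and 8.6 (-0.20 ± 0.11, adjusted p = 0.319).

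**Figure D1:**
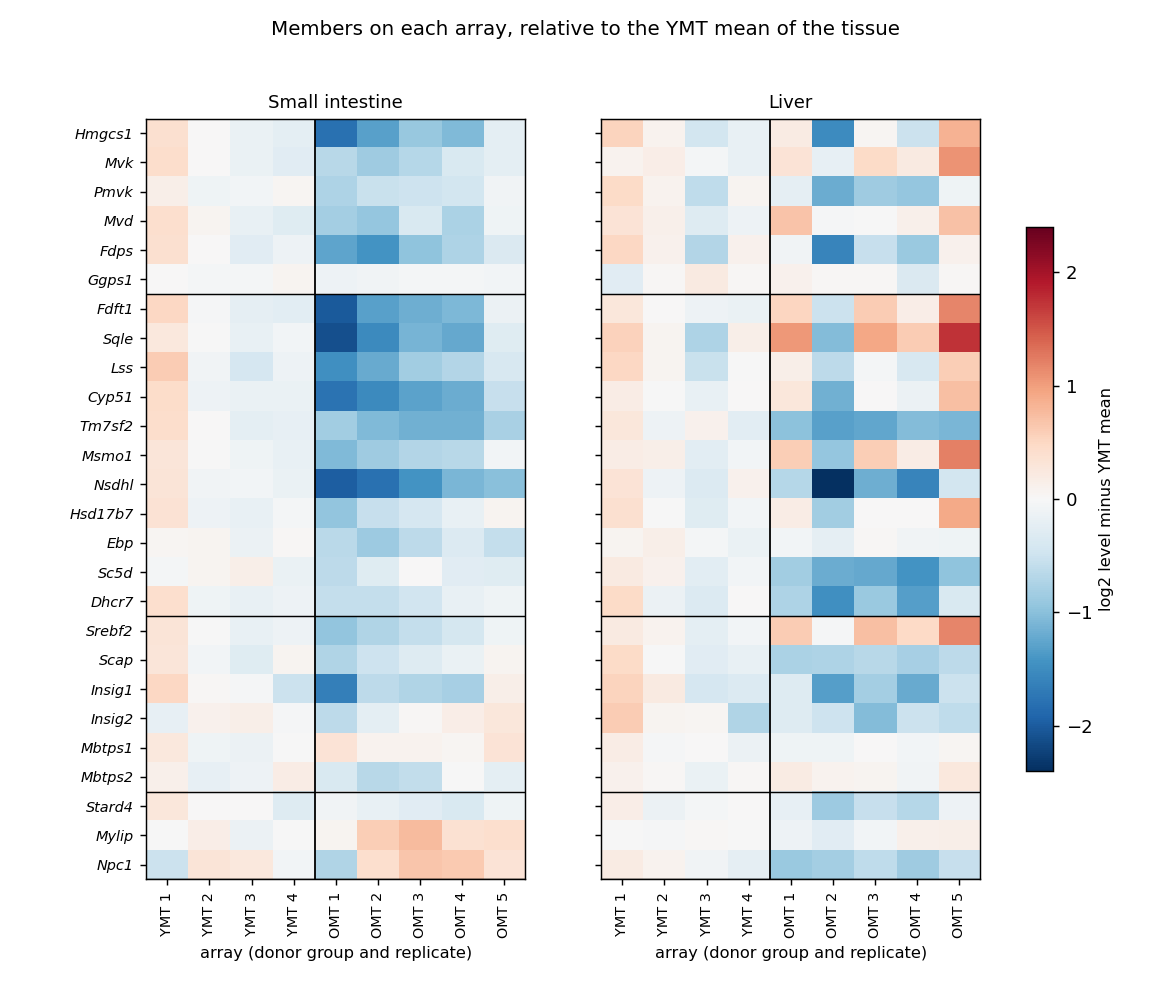
Each cell is the log2 level of 1 member (rows, by role) on 1 array (columns), minus the mean of the YMT arrays of that tissue, with blue for lower and red for higher. In intestine nearly the whole enzyme block is blue on OMT arrays, least so on OMT replicate 5. In liver OMT replicate 2 is blue for most members. The liver rows of Tm7sf2, Nsdhl, Sc5d, Dhcr7, Scap, Npc1, Insig1, Stard4, Insig2 and Pmvk are blue on all 5 OMT arrays.

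Individual intestines differed in how low they lay. The mean of the members was 7.30, 7.52, 7.71, 7.77 and 8.07 on OMT replicates 1 to 5 and 8.48, 8.22, 8.11 and 8.12 on the YMT replicates, so all 5 OMT arrays lay below all 4 YMT arrays. OMT replicate 1 was lowest, alone or tied, for 17 of 26 members, and YMT replicate 1 was highest for 18. How often these arrays were lowest or highest over all genes is not given here. On OMT replicate 5, 9 of 26 members lay below every YMT array, against 18 to 23 on the other OMT arrays. The share of all genes that lay below every YMT array on each single OMT array is not given here either. Enzymes from squalene on lay lowest on all 5 OMT arrays, at means of -1.28, -1.05, -0.83, -0.73 and -0.37 from the YMT mean, followed by those up to farnesyl diphosphate at -0.90, -0.86, -0.58, -0.57 and -0.18.

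How many members were called depended on single arrays. The count was 12 without OMT replicate 5 (2.7% of all genes lower), 2 without YMT replicate 2 (Nsdhl and Tm7sf2, 0.854% of all genes lower), and 4 or 5 without any other array, while all genes called ranged from 150 to 636. Tm7sf2 and Nsdhl kept their calls in all 9 cases, with limma adjusted p-values of at most 0.0301 and 0.0256. Cyp51 (0.0527) and Ebp (0.0585) lost theirs without YMT replicate 2, Fdps lost its call in 7 of 9 cases and Sqle in 8, at adjusted p-values of up to 0.105 and 0.112. With the filter at the 75th percentile of the array 11 members fell, of 25 tested, while the share of all genes that fell was 7.81%.

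Other measures also varied among the intestine arrays. Of those that follow, the goblet cell mean alone kept every OMT array apart from every YMT array. The mean level of small nucleolar RNAs was highest on OMT replicates 1 and 2 (8.24 and 7.78), the arrays on which the members were lowest, and 6.87 to 7.41 on the others. Without these 2 arrays the median of the members was -0.39 and 3 fell (Tm7sf2, Nsdhl and Ebp), with 1.18% of all genes. The mean over 5 goblet cell markers was 11.12 to 11.60 in OMT and 11.69 to 11.92 in YMT. Of the 5, 1 was called lower by limma, Clca1, and 4 were lower at an unadjusted p under 0.05. The mean of 6 crypt and cycling markers was 6.78 to 7.48 and 7.26 to 8.01, with Ccnb2 and Cdc20 called lower. That of 4 T cell markers was 7.31 to 8.01 and 8.00 to 8.62, with Gzma called lower and all 4 lower at an unadjusted p under 0.05. Enterocyte markers were at 12.28 to 12.44 in OMT and 11.75 to 12.38 in YMT, with 0 of 6 called by limma and 2 higher at an unadjusted p under 0.05 (Fabp2 and Apoa4). The part of these measures in the result was not tested.

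In the liver the members split. The sterol desaturase Sc5d, the reductases Tm7sf2 and Dhcr7, Nsdhl, the SREBP regulators Scap and Insig1, and the sterol handling genes Npc1 and Stard4 fell in OMT, while Srebf2 and many other enzymes did not pass in either direction. Of the 26 members 8 fell, or 30.8%, against 8.78% of all genes (19.2% in either direction). None rose by limma, against 10.4% of all genes, 1 being higher and 10 lower at an unadjusted p under 0.05. The median difference of -0.08 lay near that of all genes (-0.01), and 18 of 26 estimates were below 0, against 51% of all genes. On 6 members every OMT array lay below every YMT array, which held for 8.51% of all genes, and on none did all lie above, which held for 9.64%.

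Up to farnesyl diphosphate, no liver enzyme was called, 1 of 6 (Pmvk) being lower at an unadjusted p under 0.05. Hmgcs1 was at 10.35, 8.65, 10.21, 9.64 and 11 in OMT and at 10.69, 10.24, 9.73 and 9.99 in YMT (-0.19 ± 0.39, adjusted p = 0.777). OMT replicate 2 was below all other arrays and OMT replicate 5 above all of them. Fdps was at 9.49, 7.98, 9.02, 8.68 and 9.68 and at 10.06, 9.68, 8.87 and 9.68 (-0.60 ± 0.33, adjusted p = 0.241). Pmvk was at -0.66 ± 0.26 (adjusted p = 0.0953), Mvk at 0.38 ± 0.20, Mvd at 0.29 ± 0.19 and Ggps1 at -0.03 ± 0.12, the last 3 with adjusted p-values of 0.23, 0.32 and 0.907.

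From squalene on, 4 of 11 fell. Tm7sf2 was at 7.38, 7.06, 7.1, 7.31 and 7.25 in OMT and at 8.63, 8.23, 8.46 and 8.1 in YMT, 2.2-fold lower (-1.14 ± 0.11, adjusted p = 0.000113). Sc5d was at 10.32, 9.96, 9.93, 9.71 and 10.18 and at 11.36, 11.25, 10.9 and 11.09, 2.19-fold lower (-1.13 ± 0.13, adjusted p = 0.00027). Both had narrow spreads and a clear gap between the groups. Dhcr7 was at 7.87, 7.15, 7.72, 7.29 and 8.24 in OMT and at 9.08, 8.47, 8.28 and 8.63 in YMT, 1.95-fold lower (-0.96 ± 0.22, adjusted p = 0.0128). Nsdhl was at 8.65, 6.96, 8.17, 7.75 and 8.9 and at 9.68, 9.23, 9.01 and 9.45, 2.39-fold lower with a wide spread among OMT livers (-1.26 ± 0.33, adjusted p = 0.024). OMT replicate 2 was lowest for both, and neither gene's groups overlapped.

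The other 7 enzymes from squalene synthesis on had estimates on both sides of 0. Sqle was at 8.49, 6.41, 8.37, 8.06 and 9.18 in OMT and at 8.0, 7.51, 6.7 and 7.59 in YMT (0.65 ± 0.47, adjusted p = 0.369). OMT replicate 2 was the lowest of all 9 livers and the other 4 OMT livers lay above every YMT liver. Cyp51 was at 8.63, 7.21, 8.37, 8.22 and 9.08 and at 8.54, 8.36, 8.19 and 8.37 (-0.06 ± 0.29, adjusted p = 0.909), again with OMT replicate 2 lowest. Ebp was at 9.57, 9.43, 9.66, 9.55 and 9.54 and at 9.71, 9.77, 9.59 and 9.48, with overlap (-0.09 ± 0.08, adjusted p = 0.485). Fdft1 (0.38 ± 0.27), Msmo1 (0.33 ± 0.34), Hsd17b7 (0.05 ± 0.28) and Lss (-0.07 ± 0.25) had adjusted p-values of 0.361, 0.547, 0.917 and 0.886.

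Among the controlling genes, the escort Scap fell in liver. It was at 8.31, 8.34, 8.42, 8.29 and 8.45 in OMT, the OMT livers lying close together, and at 9.53, 9.07, 8.81 and 8.9 in YMT (-0.72 ± 0.13, adjusted p = 0.00343). Insig1 was at 10.46, 9.44, 9.94, 9.56 and 10.24 and at 11.29, 10.97, 10.35 and 10.44, 1.78-fold lower in OMT although OMT replicate 1 lay among the YMT livers (-0.83 ± 0.24, adjusted p = 0.0355). Insig2, which in liver also has a transcript that insulin lowers, was at 8.48, 8.29, 7.75, 8.27 and 8.17 and at 9.39, 8.86, 8.83 and 8.06 and did not pass (-0.59 ± 0.23, adjusted p = 0.098). Srebf2 stood on the other side, at 8.02, 7.39, 8.14, 7.9 and 8.58 in OMT and at 7.63, 7.5, 7.18 and 7.35 in YMT. All but OMT replicate 2 lay above the YMT livers, and the difference of 0.59 ± 0.20 did not pass (adjusted p = 0.0583). The proteases Mbtps1 (-0.04 ± 0.08) and Mbtps2 (0.10 ± 0.09) did not pass, at adjusted p-values of 0.758 and 0.473.

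Of the genes that handle sterols after synthesis or uptake, Npc1 was at 8.4, 8.49, 8.68, 8.44 and 8.74 in OMT livers and at 9.5, 9.38, 9.22 and 9.09 in YMT livers. It fell 1.68-fold with no overlap (-0.75 ± 0.10, adjusted p = 0.000772). Stard4 was at 7.8, 7.13, 7.45, 7.31 and 7.89 and at 8.16, 7.87, 7.96 and 8.02, 1.4-fold lower, OMT replicate 5 lying within the YMT range (-0.49 ± 0.15, adjusted p = 0.0434). Mylip was at 6.17, 6.03, 6.23, 6.41 and 6.44 and at 6.28, 6.27, 6.33 and 6.29, so that the OMT livers spread around the YMT livers (-0.04 ± 0.09, adjusted p = 0.815).

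**Figure D2:**
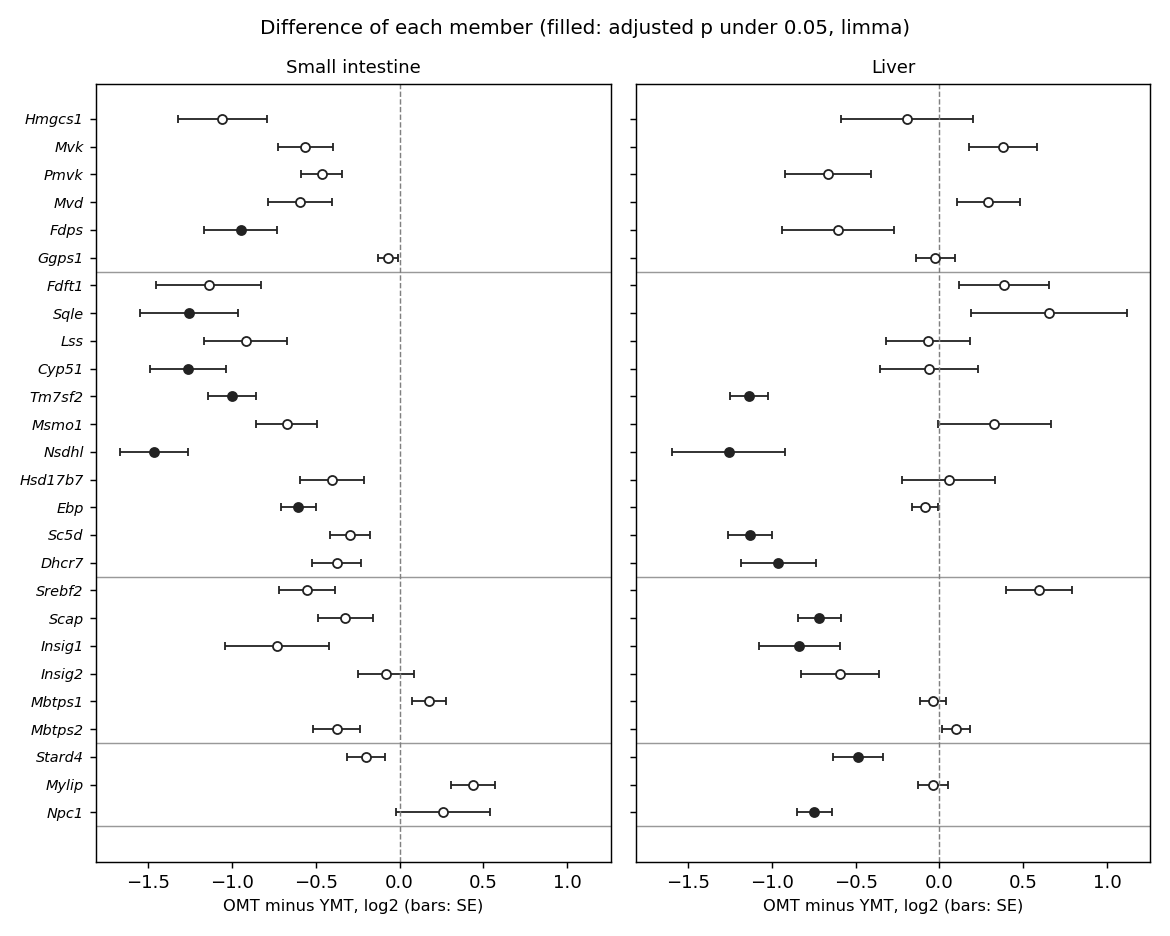
Points are the differences of OMT minus YMT on the log2 scale for the 26 members in each tissue, grouped by role, with bars for the SE; filled points have an adjusted p under 0.05 by limma. In intestine 23 of 26 points lie left of 0, and in liver the filled points (8, all below 0) stand among others on both sides.

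**Figure D3:**
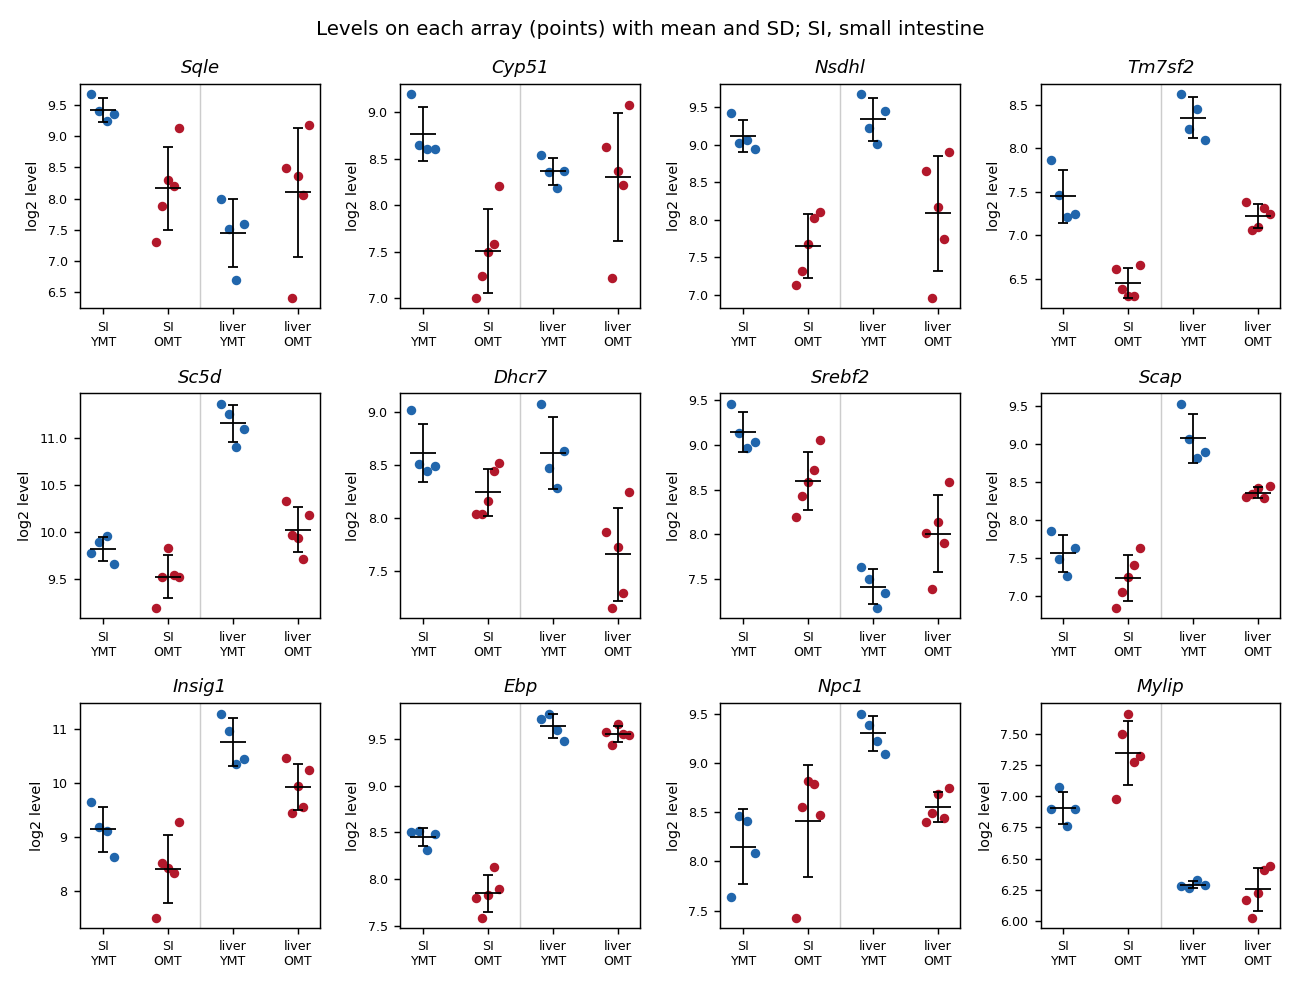
Points are log2 levels of 12 members on single arrays, blue for YMT and red for OMT, in small intestine (SI) and liver, with the mean and SD of each group; each panel has its own axis. Tm7sf2 and Nsdhl separate the groups in both tissues, Sc5d, Dhcr7, Scap and Npc1 in liver alone, and Sqle, Cyp51 and Ebp in intestine alone. For Sqle and Cyp51, 1 OMT liver (replicate 2) lies far below the other 4.

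One liver stood apart for these genes. On OMT replicate 2 the members averaged 7.44, against 8.18, 7.99, 7.81 and 8.43 on OMT replicates 1, 3, 4 and 5 and 8.52, 8.27, 8.01 and 8.14 on the YMT livers, and it was lowest, alone or tied, for 17 of 26 members. OMT replicate 5 and YMT replicate 1 were each highest for 12. The share of all genes for which these livers were lowest or highest is not given here. Without OMT replicate 2, 6 members fell and 3 rose: Sqle at 1.07 (adjusted p = 0.0305), Msmo1 at 0.64 (adjusted p = 0.0478) and Srebf2 at 0.75 (adjusted p = 0.00893). Of the 13380 genes tested, 1049 then fell (7.84%) and 1179 rose. Insig1 (adjusted p = 0.071) and Stard4 (adjusted p = 0.0747) then no longer passed, and the estimates of Hmgcs1 (0.14), Lss (0.08), Cyp51 (0.21) and Mylip (0.02) turned positive without passing.

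A different pair of livers, OMT replicates 1 and 2, stands apart for the desaturase Scd1 (9.21 and 9.40, against 5.63 to 6.61 in the other OMT livers and 12.48 to 12.84 in YMT). Without both, 7 members fell, with 7.36% of all genes, and Srebf2 rose, by 0.79 (adjusted p = 0.0124). Over the 9 livers left out in turn, Sc5d, Tm7sf2, Dhcr7, Scap and Npc1 kept their calls, with limma adjusted p-values of at most 0.00179, 0.00066, 0.0393, 0.013 and 0.00436. Nsdhl lost its call without YMT replicates 1 (0.0681), 2 (0.0553) or 4 (0.0624), Insig1 in 5 of 9 cases and Stard4 in 7, so that 5 members fell without YMT replicate 1 or YMT replicate 2. Of all genes, 6.88% and 6.52% then fell. Hepatocyte markers were at 12.49 to 12.56 in OMT and 12.53 to 12.61 in YMT, with 0 of 5 called by limma and 0 at an unadjusted p under 0.05. The mean of the endothelial markers was 6.70 to 7.04 in OMT and 7.25 to 7.63 in YMT with 3 of 4 called, and stellate cell and fibroblast markers were at 6.44 to 6.70 and 6.68 to 7.13 with 2 of 4 called. Smooth muscle markers were at 4.90 to 5.18 and 5.15 to 5.60, and 2 of 4 fell (Acta2 and Tagln). Kupffer cell and macrophage markers were at 6.65 to 7.08 and 6.55 to 6.74, where Clec4f fell (-0.68 ± 0.09) and Marco rose 3.17-fold (1.67 ± 0.19), with no overlap for either. The part of these cell type markers in the result was not tested.

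**Figure D4:**
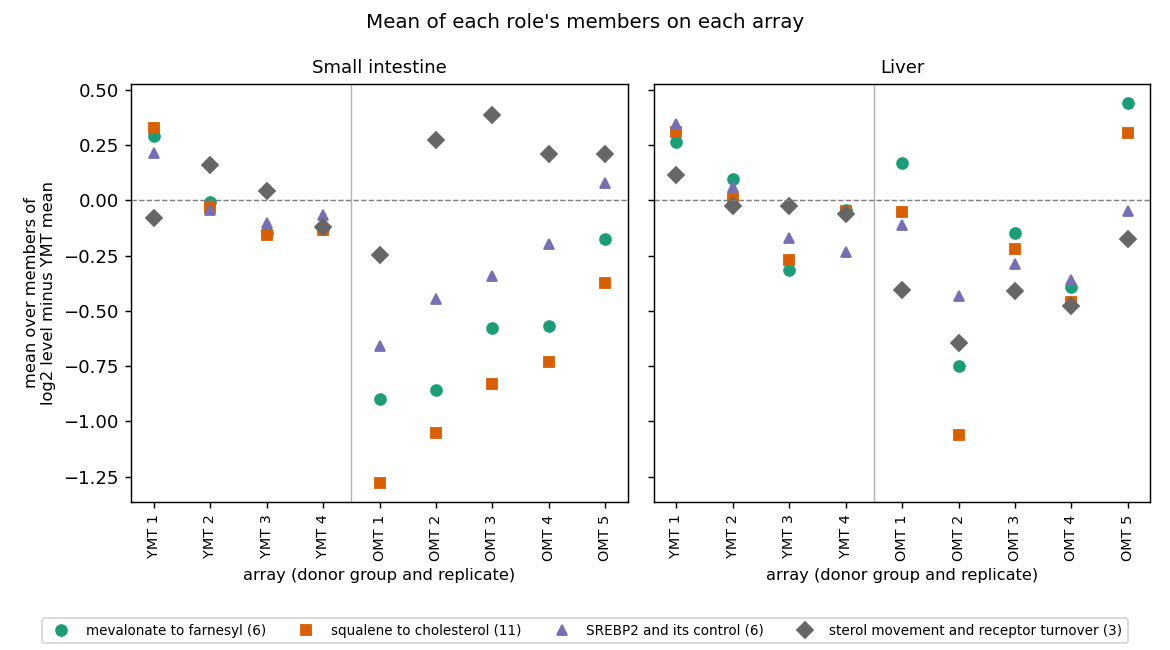
Each point is the mean, over the members of 1 role, of the log2 level on 1 array minus the YMT mean of the tissue; the number of members is in brackets. In intestine the enzymes from squalene on (squares) lie lowest on all 5 OMT arrays, from -1.28 to -0.37, and in liver they lie at -1.06 on OMT replicate 2 and at 0.30 on OMT replicate 5.

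For 8 of the 26 members the difference of OMT minus YMT was unequal between the tissues, by limma on all 18 arrays. The signed difference was lower in liver for 2 and higher for 6. Among the 11965 genes tested 11.9% were unequal, namely 4.04% lower and 7.91% higher. Values are the liver difference minus the intestinal one. Srebf2 (1.14 ± 0.27, adjusted p = 0.0103), Sqle (1.91 ± 0.59, adjusted p = 0.0407), Fdft1 (1.52 ± 0.44, adjusted p = 0.0296), Mvk (0.94 ± 0.27, adjusted p = 0.0324) and Mvd (0.88 ± 0.28, adjusted p = 0.0468) had estimates below 0 in intestine and above 0 in liver. Ebp fell in intestine and differed little in liver (0.52 ± 0.13, adjusted p = 0.0168).

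Sc5d had the more negative difference in liver (-0.83 ± 0.18, adjusted p = 0.00677), and Npc1 was lower there and higher by estimate in intestine (-1.01 ± 0.31, adjusted p = 0.0417). Cyp51, called in intestine only, missed the threshold for this test (1.20 ± 0.39, adjusted p = 0.0523). Tm7sf2 (-0.14 ± 0.19, adjusted p = 0.682) and Nsdhl (0.21 ± 0.42, adjusted p = 0.788), the 2 members called in both tissues, had no detectable difference between them. Scap (-0.39 ± 0.22, adjusted p = 0.249), Insig1 (-0.10 ± 0.41, adjusted p = 0.901) and Dhcr7 (-0.59 ± 0.28, adjusted p = 0.183) were called in liver alone but not shown to differ from intestine. Stard4 (-0.29 ± 0.20, adjusted p = 0.355), also called in liver alone, was not shown to differ either. Neither was Fdps (0.35 ± 0.42, adjusted p = 0.635), called in intestine alone. In all, 2 members were called in both tissues, 4 in intestine alone, 6 in liver alone and 14 in neither. Of all genes tested, 4.14% were called in intestine and 19.2% in liver. The share of all genes called in both is not given here. Srebf2, Sc5d and Ebp kept this call with each of the 18 arrays left out in turn (limma adjusted p of at most 0.0247, 0.0187 and 0.0394). Fdft1 kept it in 12 of 18 cases, Mvk in 11, Mvd in 8, and Sqle and Npc1 in 5 each. The count was 3 without intestine OMT replicate 2, intestine YMT replicate 1 or liver YMT replicate 3, and 4 or 5 without intestine OMT replicate 3, intestine YMT replicate 2, liver OMT replicates 1 or 5 or liver YMT replicates 2 or 4. The share of all genes unequal is given only for the fit on all 18 arrays (11.9%).

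**Figure D5:**
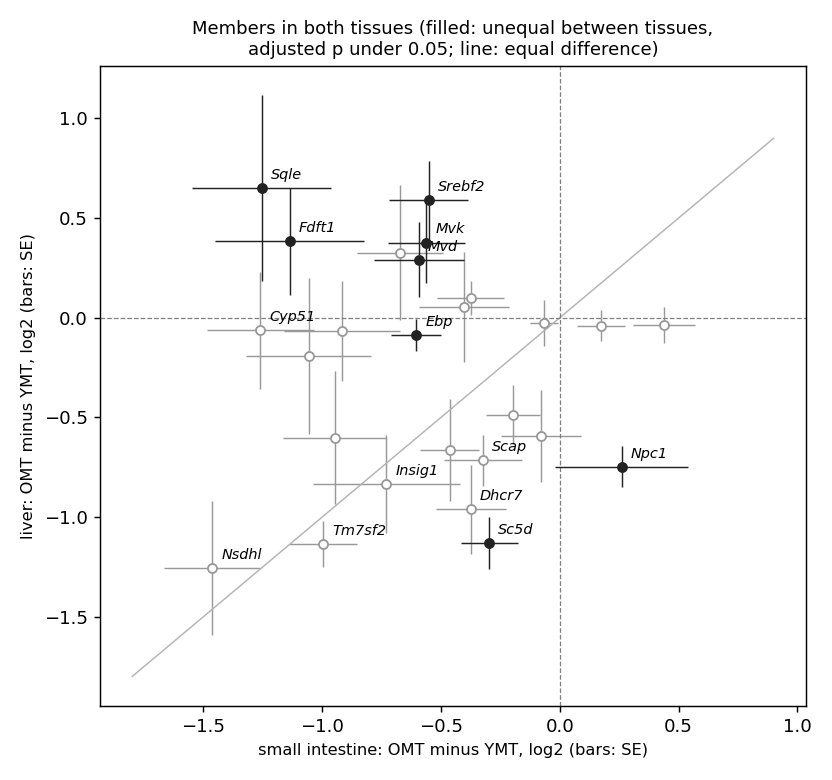
Points are the 26 members, with the difference of OMT minus YMT in small intestine on the horizontal axis and in liver on the vertical axis, both log2 with SE bars; filled points were unequal between the tissues, and the solid line marks equal differences. Tm7sf2 and Nsdhl lie near the line, Sqle, Fdft1 and Srebf2 above it and Sc5d and Npc1 below it.

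Other genes of sterol metabolism were read from 6 lists of 37 genes in all. In intestine 4 of the 31 tested fell and 1 rose (median -0.10), against 3.1% and 1.04% of all genes. In liver 8 of 30 fell and 2 rose (median -0.08), against 8.78% and 10.4%, so that the share that rose was below that of all genes. Of 4 genes that supply acetyl-CoA and acetoacetyl-CoA, Acss2 (-0.83 ± 0.17) fell in intestine, and Acly (-2.73 ± 0.26), Acss2 (-2.04 ± 0.24) and Aacs (-1.07 ± 0.28) fell in liver. Among LXR and its targets, Abcg5, which with Abcg8 pumps sterols out of the cell, fell in intestine (-0.56 ± 0.11), and in liver Abcg5 (-0.93 ± 0.19), Abcg8 (-1.22 ± 0.18), Lpcat3 (-0.87 ± 0.12) and Srebf1 (-1.78 ± 0.35) fell, of 6.

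The ubiquitin ligase Rnf145 (-0.80 ± 0.19) and the scaffold Erlin2 (-0.47 ± 0.10) fell in intestine, of 4 tested genes of sterol-regulated degradation in the endoplasmic reticulum. In liver 0 of these 4 were called by limma, and 1, Rnf139, was higher at an unadjusted p under 0.05. Of the genes of sterol transport, the oxysterol-binding protein Osbp rose in intestine (0.35 ± 0.06) and Npc2, the lysosomal partner of Npc1, fell in liver (-0.33 ± 0.09). Tmem97, another target of SREBP2, was at -0.66 ± 0.25 in intestine and -0.04 ± 0.13 in liver (adjusted p = 0.15 and 0.879). Liver Lcat, which esterifies cholesterol in plasma lipoproteins, rose by 0.89 ± 0.09, and Nus1, of the dolichol branch, by 0.69 ± 0.08.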

How the data were processed

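RNA (250 ng) from 5 OMT and 4 YMT recipients per tissue was measured on 18 Affymetrix arrays. The deposited values are log2 levels. Per the submitters' processing notes, the authors used the Affymetrix Expression Console and RMA. Software versions are not given in the labels, and base 2 was taken from the range of the values. RMA on a log2 scale compresses differences near background.

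Of 41345 probe sets, 23521 carry 1 gene symbol, 1814 several and 16010 none, and only the first were named. For 23328 of these the RefSeq symbol (GRCm38.p6) was used, whether or not it differed from that of the annotation. Genes above the array median on at least 4 arrays of a tissue were tested with limma 3.58.1 in R 4.3.3 (lmFit and eBayes), each tissue alone, and on all 18 arrays for the difference between tissues, with Benjamini-Hochberg adjustment over all genes tested. Figures were drawn with matplotlib 3.10.9 in Python 3.11.15. No values column lacked a sample. The fits were tested on simulated data.

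The members, lists and roles were chosen with earlier results of these data known. Array values are given for members called in a tissue and for those that start or control the pathway, and the other members by their differences. Alternatives were no filter, a filter at the 75th percentile, another eBayes setting, quantile normalization, median centring, the mean over probe sets, the replicate number as a block, and leaving out arrays. Nothing in the labels used here says whether recipients shared a donor or cage, or whether both tissues came from the same animals. The p-values therefore measure only the spread between these samples.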

Additional observations from a re-analysis of the deposited data

Results flagged for a closer look

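Among 104 groups of 4 or 5 arrays examined, 4 held an array far from the others, and chance alone marks about 1 in 20 groups. In YMT intestine, replicate 1 was highest for Cyp51 at 9.20, with the other 3 arrays at 8.60 to 8.65, and for Dhcr7 at 9.02, with the others at 8.44 to 8.51. In OMT intestine, replicate 1 was lowest for Npc1 at 7.43, with the others at 8.47 to 8.82. In OMT liver, replicate 4 was lowest for Ggps1 at 4.89, with the others at 5.26 to 5.34.

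For 8 of the 26 members the difference of OMT minus YMT was unequal between the tissues. The test was limma with Benjamini-Hochberg adjustment on the liver difference minus the intestinal one. Of the 11965 genes tested, 11.9% were unequal in this way. With each of the 18 arrays left out in turn, Srebf2, Sc5d and Ebp kept the call in all cases. Fdft1 kept it in 12, Mvk in 11, Mvd in 8, and Sqle and Npc1 in 5 each. The signed difference of OMT minus YMT was higher in liver than in intestine for Mvk (0.94, adjusted p = 0.0324), Mvd (0.88, adjusted p = 0.0468), Fdft1 (1.52, adjusted p = 0.0296), Sqle (1.91, adjusted p = 0.0407), Ebp (0.52, adjusted p = 0.0168) and Srebf2 (1.14, adjusted p = 0.0103). It was lower in liver for Sc5d (-0.83, adjusted p = 0.00677) and Npc1 (-1.01, adjusted p = 0.0417), the 2 of these members that fell in liver.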

How the results depend on the processing

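The members called in intestine numbered 11 with the filter at the 75th percentile, where 10.4% of all genes tested were called against 4.14%, 3 without OMT replicates 1 and 2, and 2 to 12 with single arrays left out; all genes called there numbered 310 with no filter, 234 without both OMT replicates and 150 to 636 with single arrays left out. In liver 5 to 9 members were called with single arrays left out, while all genes called there numbered 1800 to 2680 of the 13380 tested. The count of 9 came without OMT replicate 2, where 6 members fell and 3 rose. The replicate block within a tissue also takes OMT replicate 5, which has no YMT partner, out of the comparison, so it is set beside the fit without that array. It gave 9 members in intestine against 12, with 3.46% of all genes against 3.63%. In liver it gave 9 members against 8, and 1459 of all genes (10.9%) against 1876 (14%), with 2563 for all arrays. It gave 11 members unequal between the tissues. Correlations did not show that replicate numbers pair the samples, and with 4 pairs per tissue they cannot exclude it. Same-numbered OMT and YMT arrays correlated at -0.06 to 0.32 in intestine and at -0.18 to 0.09 in liver. In turn, 1 of 4 and 0 of 4 OMT arrays correlated best with their own number. Same-numbered intestine and liver arrays of a donor group correlated at -0.04 to 0.15. Members unequal between the tissues numbered 4 with no filter and 3 to 9 with single arrays left out. The share of all genes unequal between the tissues is given only for the unaltered fit (11.9%). Quantile normalization called 398 genes lower and 211 higher in intestine and 1492 lower and 1156 higher in liver, and median centring 514 and 108 in intestine.

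Estimates near 0 changed sign under some settings, and none of them was called. With single arrays left out, Insig2 in intestine ran from -0.168 to 0.055. In liver Hmgcs1 ran from -0.45 to 0.138, Lss from -0.244 to 0.096, Cyp51 from -0.258 to 0.21, Hsd17b7 from -0.158 to 0.275, Mylip from -0.0825 to 0.02, Ggps1 from -0.118 to 0.0525 and Mbtps1 from -0.0893 to 0.0173. Between the tissues Insig1 ran from -0.33 to 0.113 and Ggps1 from -0.0505 to 0.12. Without OMT replicates 1 and 2 the values were 0.152 for Insig2 in intestine, 0.121 for Hmgcs1, 0.0508 for Lss, 0.192 for Cyp51 and 0.0675 for Mylip in liver, and -0.0433 for Ggps1 between the tissues. Quantile normalization gave -0.00467 for Hsd17b7 in liver and -0.0608 for Ggps1 between the tissues, and the replicate block gave -0.158 for Hsd17b7 in liver. The cause was not tested. Over called members, 80 of 102 results in intestine, 118 of 136 in liver and 149 of 208 between the tissues kept direction and call, and the rest kept direction only. Members near the array median have little signal over background.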
